A study of Mus musculus with 9 samples.

Results

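The genes that copy DNA in S phase were followed in alveolar macrophages, the macrophages that live in the air spaces of the lung, with and without the gene Vhl. The set has 39 genes, listed by name for their part in replication. The list was drawn up with earlier results of these data known. All 39 of 39 were present among the 12003 genes measured by poly(A) RNA sequencing, and none had fewer than 17 reads in any library. Vhl knockout cells came from Vhl(flox/flox) / CD11c (cre/+) mice, in which Cre recombinase under the CD11c promoter removes the loxP-flanked Vhl segment. Cre controls were Vhl(+/+) / CD11c (cre/+), so they share the Cre transgene with the knockout. Floxed controls were Vhl(flox/flox) / CD11c (+/+), so they share the floxed alleles but have no Cre. Each genotype has 3 libraries, and each library is 1 pool of lavage cells from 5 to 7 untreated C57BL/6 mice of matched sex aged 8 to 12 weeks, selected with CD11c beads. The CD11c promoter is also active in dendritic cells, and the beads retain them as well.

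Replication starts when ORC, Cdc6 and Cdt1 load the ring-shaped Mcm helicase onto DNA before S phase. Cyclin E with its kinase, and E2F transcription factors released from Rb, then start S phase, Cdc45 and GINS switch the helicase on, and polymerases held by the sliding clamp Pcna copy both strands from nucleotides supplied by ribonucleotide reductase and thymidylate synthesis. Many of these genes are transcribed in a burst at the G1 to S transition under E2F control, so their mRNA is widely used as a sign of dividing cells. Alveolar macrophages renew themselves locally by division. VHL directs the oxygen-sensitive HIF alpha subunits to degradation.

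Because many of these genes are known E2F targets, the 250 bases before each RefSeq start (GRCm38.p6) were searched on both strands for the letters of the E2F site, TTTCCCGC, TTTCGCGC, TTTGCCGC or TTTGGCGC. A window was at hand for 32 members, and 8 of them (25%) held at least 1 match, namely Cdc6, Mcm5, Mcm6, Mcm7, Orc1, Pola1, Rfc3 and Uhrf1. The share was 4.03% over the 9241 measured genes with a window and 2.16% over all 27025 genes with one. Those with a matched window that overlaps no annotated exon are a strongly lowered gene (Uhrf1), helicase subunits (Mcm5, Mcm6) and a polymerase subunit (Pola1). Stretches around the matches are shown for these 4. Each reads 5′ to 3′ on the gene's strand, and capitals mark the matched letters, which overlap where a run is longer than the motif.
Uhrf1, chr17:56304098-56304165, plus strand: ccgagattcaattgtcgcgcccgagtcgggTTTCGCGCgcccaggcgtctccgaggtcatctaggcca
Mcm5, chr8:75109326-75109397, plus strand: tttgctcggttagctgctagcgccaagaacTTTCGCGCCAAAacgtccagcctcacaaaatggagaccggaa
Mcm6, chr1:128359715-128359845, minus strand: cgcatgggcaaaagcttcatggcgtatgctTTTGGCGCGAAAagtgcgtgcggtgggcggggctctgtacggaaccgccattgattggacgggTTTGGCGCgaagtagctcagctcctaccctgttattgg
Pola1, chrX:93632256-93632323, minus strand: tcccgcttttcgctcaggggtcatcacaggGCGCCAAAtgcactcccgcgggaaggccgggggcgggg
The Uhrf1 stretch precedes the later of its RefSeq starts, and the window of the earlier start held 0 matches. Mcm5 has 2 overlapping matches, Mcm6 has 3 and the other pair have 1 each. The letters CCAAT occurred in 56.2% of the members' windows and 41% of those of measured genes, and the HIF core letters ACGTG or GCGTG in 68.8% and 61.7%. A match describes these letters only, and says nothing of binding.

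Values are normalized reads, the reads of a gene scaled by library size and not corrected for gene length. Libraries held 18201116 (Cre control 3) to 25861174 (Vhl knockout 3) reads. Vhl (ENSMUSG00000033933, chromosome 6, 113623959 to 113631633, GRCm38) had 2.02, 2.14 and 2.52 normalized reads in the 3 knockout libraries, 24, 21.9 and 25.3 in the Cre controls and 21, 14.9 and 18.4 in the floxed controls (log2 fold change -2.75 with an SE of 0.110, adjusted p = 6.06e-08 by limma), so the labels matched the targeted gene. The markers of alveolar macrophages were all measured (16 of 16), and those of dendritic cells were lower in the knockout. Library 1 of each genotype carried more neutrophil marker reads than libraries 2 and 3. P-values measure the spread between pools, each of which averages several mice.

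Vhl knockout libraries had less mRNA of nearly the whole replication set. Against both controls, 36 of 39 members fell and 1, Gins2, rose, where 20.2% of all genes were called lower, 19.7% higher and 39.8% in either direction (limma on log2(value + 1), Benjamini-Hochberg adjusted p under 0.05 over 12003 genes). The median log2 fold change of the members was -0.72, and that of all genes -0.00. In 34 members every knockout library lay below all 6 control libraries, an order seen in 18.5% of all genes, in 1 they lay above (19.3% of all genes), and in 4 the groups overlapped. On the log2(value + 1) scale, which shrinks the change of genes with few reads, the steepest falls were in Uhrf1 (-1.30), Cdc6 (-1.20), Mcm10 (-1.10), Prim1 (-1.05) and Rrm2 (-1.03), and the shallowest in Rfc2 (-0.20), Cdt1 (-0.36) and Mcm3 (-0.41). As a percentage of the control mean, the lowest knockout means were those of Cdc6 (38.7%), Orc1 (39.2%) and Uhrf1 (39.3%). In whole cell RNA of pools, fewer cells in S phase, less of these mRNAs in each cell and a changed mix of cells cannot be told apart.

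**Figure D1:**
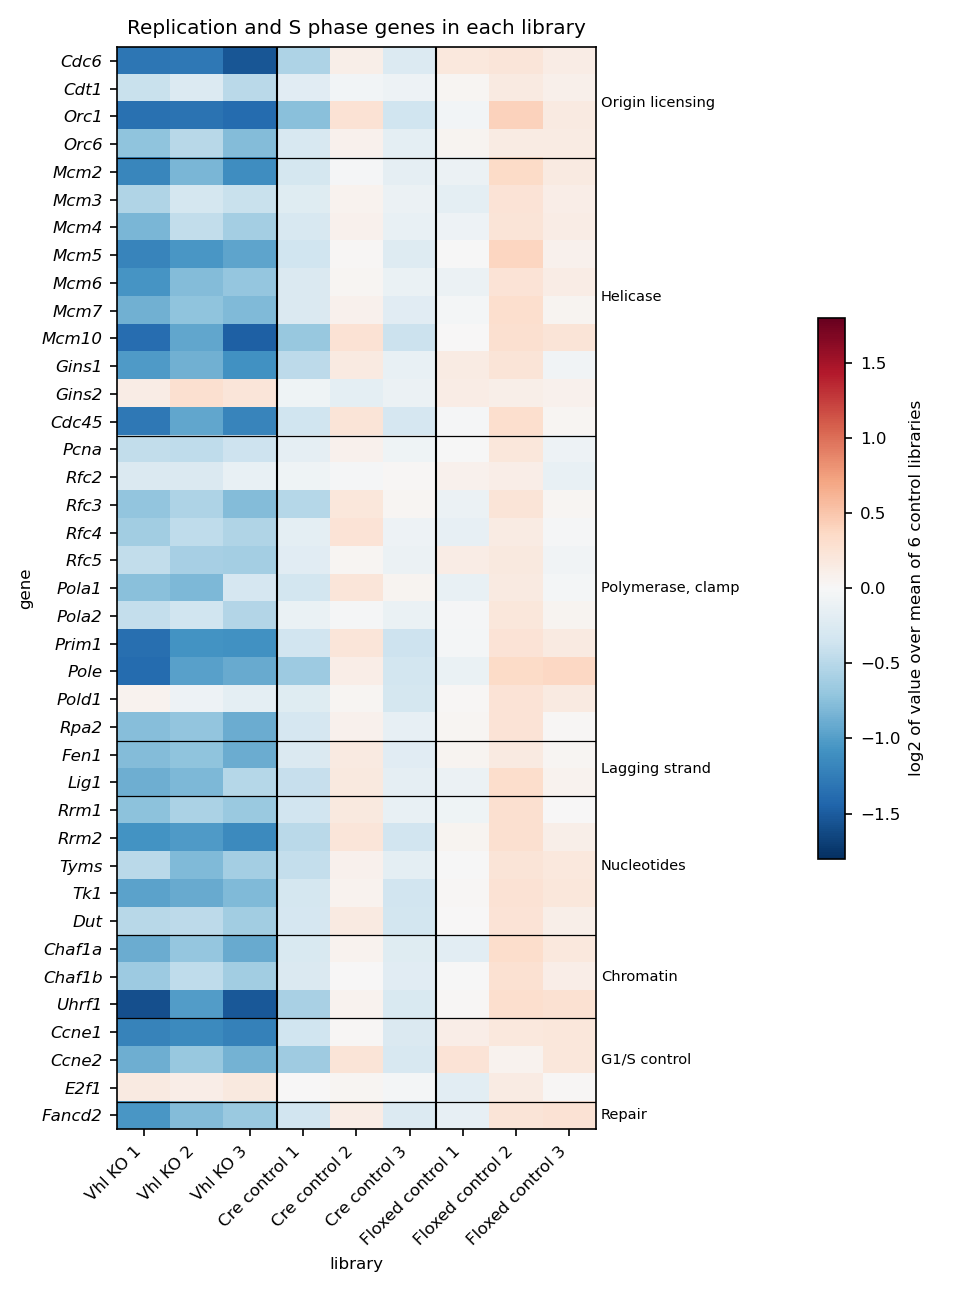
Level of each of the 39 genes (rows, grouped by role) in each library (columns), as the log2 of its value over the mean of the 6 control libraries. The 3 knockout columns are blue, that is below the control mean, in all rows but Gins2, E2f1 and part of Pold1, and Cdc6, Orc1, Mcm10 and Uhrf1 are among the darkest.

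Origin licensing genes fell 4 of 4. Cdc6, the ATPase that joins ORC to load the helicase (ENSMUSG00000017499, chromosome 11, 98907801 to 98923940), had 5.41, 5.46 and 4.60 normalized reads in the 3 knockout libraries, 9.03, 14.4 and 11.2 in the Cre controls and 15.2, 15.5 and 14.6 in the floxed controls. No knockout library reached the lowest control, and the knockout mean was 38.7% of the control mean (log2 fold change -1.20 with an SE of 0.125, adjusted p = 5.08e-05 by limma). Orc1, the largest ORC subunit and one that cycles with cell division, had the fewest reads of the set, at 0.858, 0.868 and 0.840 in knockout libraries, against 1.30, 2.62 and 1.70 in Cre controls and 2.12, 2.92 and 2.45 in floxed controls. Its fall was -0.76 on the log2(value + 1) scale and -1.33 by edgeR on the recovered reads, since adding 1 shrinks the change of a gene near 1 normalized read. Orc6, the smallest ORC subunit, fell to 8.48 ± 0.896 in knockouts, against 13.4 ± 1.61 in controls (SD, n = 3 and n = 6), a log2 change of -0.60, with no overlap of libraries. Cdt1, the loading factor that is kept in check mainly at the protein level, changed least of the 4, with 34.4, 38.2 and 32.3 in knockout libraries, against 39.5, 43.9 and 42.5 in Cre controls and 46.5, 50.8 and 48.4 in floxed controls (log2 fold change -0.36, limma adjusted p = 0.00177).

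All 6 subunits of the Mcm2 to Mcm7 ring fell, but not by the same amount. Mcm5 (ENSMUSG00000005410, chromosome 8, 75109569 to 75128439), whose promoter letters are shown above, had 29.3, 32.3 and 34.7 normalized reads in the 3 knockout libraries, 52.4, 68 and 57.3 in the Cre controls and 66.4, 87.2 and 70.9 in the floxed controls. Every knockout pool was below every control pool, and the knockout mean was 47.9% of the control mean (log2 fold change -1.02 with an SE of 0.105, adjusted p = 4.42e-05 by limma). Mcm2 was much the same, with 27.8, 35.5 and 29 in knockout libraries, against 50.8, 62.3 and 56.2 in Cre controls and 58.5, 79.7 and 70.2 in floxed controls (48.9% of the control mean). Mcm6, Mcm7 and Mcm4 stood at 56.1%, 57.7% and 65.2% of the control mean, with log2 fold changes of -0.82, -0.77 and -0.60. Mcm6 ranged over 49 to 63.2 in knockouts and 85 to 121 in controls, Mcm7 over 51.8 to 57.4 in knockouts and 78.7 to 117 in controls, and Mcm4 over 43.8 to 56.5 in knockouts and 63.1 to 90.5 in controls, so that none of the 3 overlapped. Mcm3 (ENSMUSG00000041859, chromosome 1, 20802968 to 20820312) fell least, with 72.1, 84.3 and 79.5 in knockout libraries, against 90.9, 109.7 and 98.2 in Cre controls and 93.7, 126 and 114 in floxed controls (74.6%, log2 fold change -0.41 with an SE of 0.0964, adjusted p = 0.00720 by limma). The 6 proteins form the ring in equal numbers, and their mRNAs were therefore also set against each other, a comparison chosen after the values were seen and given as a description. The ratio of Mcm3 to Mcm5 normalized reads was 2.46, 2.61 and 2.29 in knockout libraries, 1.74, 1.61 and 1.72 in Cre controls and 1.41, 1.44 and 1.61 in floxed controls. The ratio of Mcm3 to Mcm2 was 2.59, 2.38 and 2.74 in knockouts, 1.79, 1.76 and 1.75 in Cre controls and 1.60, 1.57 and 1.62 in floxed controls. In both ratios the knockout pools lay above all 6 control pools.

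The factors that turn the ring into a working helicase fell with 1 exception. Mcm10, which helps to fire origins, had 5.88, 7.96 and 5.48 in knockout libraries, against 9.54, 18.3 and 11.6 in Cre controls and 15.3, 18.7 and 18 in floxed controls, and the knockout mean was 42.3% of the control mean (log2 fold change -1.10 with an SE of 0.181, adjusted p = 9.11e-04 by limma). Cdc45, the helicase cofactor, was at 45.6%, with 6.22, 7.96 and 6.68 in knockout libraries, against 11.9, 17.8 and 12.3 in Cre controls and 15, 18.9 and 15.6 in floxed controls. Gins1, a GINS subunit, was at 50.4%, with 3.81 ± 0.296 in knockouts and 7.55 ± 1.27 in controls (SD, n = 3 and n = 6). Gins2, another subunit of the same complex (ENSMUSG00000031821, chromosome 8, 120578633 to 120589304), went the other way, with 42.2, 46.8 and 44.7 normalized reads in the 3 knockout libraries, 36.3, 34.1 and 35.8 in the Cre controls and 41.9, 41.4 and 40.5 in the floxed controls. The knockout libraries were above all control libraries (log2 fold change 0.22 with an SE of 0.0529, adjusted p = 0.00887 by limma), and the log2 fold change was 0.32 against Cre controls (limma adjusted p = 0.00266) and 0.11 against floxed controls (limma adjusted p = 0.201). Without Vhl knockout 2 the limma adjusted p for Gins2 was 0.0524. Exons of Gins2 overlap those of Gse1 on the opposite strand. Gse1 rose in the knockout, with 74, 87.5 and 92.1 in knockout libraries, against 33.9, 36.6 and 37.1 in Cre controls and 40.8, 41.8 and 47.2 in floxed controls (log2 fold change 1.08). Whether reads were counted by strand is not stated in the sources at hand, and the part of Gse1 reads in the Gins2 value was not tested.

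Polymerase, primase and clamp genes fell in 10 of 11 cases. Prim1, the catalytic subunit of primase, fell furthest, with 6.56, 7.96 and 7.88 normalized reads in the 3 knockout libraries, 13.2, 19.5 and 12.9 in the Cre controls and 16.4, 19.8 and 18.7 in the floxed controls (44.5% of the control mean, log2 fold change -1.05 with an SE of 0.132, adjusted p = 1.71e-04 by limma). Pole, the catalytic subunit of the leading strand polymerase epsilon (ENSMUSG00000007080, chromosome 5, 110286306 to 110337474), had 10.9, 14.4 and 15.3 in knockout libraries, against 18.2, 31 and 22.6 in Cre controls and 26.3, 36.3 and 37 in floxed controls, and was at 47.4% of controls. The groups did not overlap in either gene, although Pole ranged from 18.2 to 37 among control pools. Pola1 and Pola2, subunits of the primer-extending polymerase alpha, were at 65.9% and 73.8% of controls (log2 fold changes -0.58 and -0.42). Pola2 ranged over 21.6 to 24.4 in knockouts and 28.7 to 36.1 in controls. Pola1 overlapped, with 19.6, 18.8 and 26.8 in knockout libraries, against 26.3, 38.2 and 34 in Cre controls and 30.1, 37 and 32.1 in floxed controls. Vhl knockout 3 was the 1 library in which Pola1 (26.8) exceeded the lowest control (26.3). Pcna, the sliding clamp (ENSMUSG00000027342, chromosome 2, 132249162 to 132253314), was narrow within groups, with 176, 175 and 186 in knockout libraries, against 215, 254 and 227 in Cre controls and 239, 277 and 225 in floxed controls, and its fall to 74.6% of controls passed the test (log2 fold change -0.42 with an SE of 0.0749, adjusted p = 0.00162 by limma). Rpa2, a subunit of the single-strand binding protein RPA, was at 57.8% (-0.73), over 11 to 12.4 in knockouts and 16.5 to 24.2 in controls. The clamp loader genes Rfc3, Rfc4 and Rfc5 were at 62.4%, 68.7% and 68.5% of controls, with log2 fold changes of -0.60, -0.47 and -0.52. Rfc3 ranged over 7.36 to 8.58 in knockouts and 8.89 to 14.9 in controls, Rfc4 over 5.92 to 6.64 in knockouts and 8.06 to 10.8 in controls, and Rfc5 over 15.4 to 17.2 in knockouts and 20.4 to 26.4 in controls, without overlap. Rfc2 was at 86.3%, with 26.7, 26.9 and 29.3 in knockout libraries, against 30.5, 31.4 and 32.4 in Cre controls and 33.8, 34.9 and 29.1 in floxed controls. Knockout and control values of Rfc2 overlap, and its call (adjusted p = 0.0402) was lost in 8 of 17 alternatives, with adjusted p up to 0.18. Pold1, the catalytic subunit of the lagging strand polymerase delta (ENSMUSG00000038644, chromosome 7, 44532746 to 44548849), did not pass the test, at 36.3, 32.4 and 30.7 in knockout libraries, against 29.6, 35.4 and 27.8 in Cre controls and 35.2, 41 and 38.9 in floxed controls (log2 fold change -0.05 with an SE of 0.0890, adjusted p = 0.678 by limma). All 3 knockout values lie inside the control range of 27.8 to 41.

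Both lagging strand genes and all 5 nucleotide supply genes fell. Fen1, the nuclease that trims Okazaki fragments, had 20.9, 21.8 and 19.4 in knockout libraries, against 30.01, 40.1 and 31.3 in Cre controls and 37.1, 40.4 and 36.8 in floxed controls (57.7% of controls), and Lig1, the ligase that seals them, was at 60.4% (-0.70), over 26.5 to 34.3 in knockouts and 36.8 to 61.1 in controls. Rrm2, the S phase subunit of ribonucleotide reductase (ENSMUSG00000020649, chromosome 12, 24708241 to 24714146), had 35.1, 36.3 and 33.4 normalized reads in the 3 knockout libraries, 52.7, 86.2 and 58.1 in the Cre controls and 76.7, 90.5 and 79.3 in the floxed controls. The knockout pools were nearly alike while the Cre controls spread widely, and the knockout mean was 47.3% of the control mean (log2 fold change -1.03 with an SE of 0.133, adjusted p = 2.01e-04 by limma). Rrm1, the large subunit that is less tied to S phase, was at 63.2% (-0.64, limma adjusted p = 0.00134), over 63 to 70.6 in knockouts and 83 to 129 in controls. Tk1, the S phase thymidine kinase, had 19, 19.7 and 21.2 in knockout libraries, against 29.8, 38.6 and 29.2 in Cre controls and 37.6, 44 and 42.4 in floxed controls (54.1%). Tyms, thymidylate synthase, and Dut, which removes dUTP, were at 64.9% and 69.3% of controls, with log2 fold changes of -0.58 and -0.48. Tyms ranged over 12.4 to 15.3 in knockouts and 15.9 to 25.1 in controls, and Dut over 11.5 to 12.9 in knockouts and 14.1 to 21.1 in controls, each with a narrow gap between the groups.

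The chromatin genes Uhrf1, Chaf1a and Chaf1b fell. Uhrf1, which recruits the maintenance DNA methyltransferase to newly copied DNA (ENSMUSG00000001228, chromosome 17, 56303321 to 56323486), had 19.8, 29.5 and 20.7 normalized reads in the 3 knockout libraries, 39.7, 61.7 and 48.9 in the Cre controls and 60.2, 73 and 72 in the floxed controls. The highest knockout pool was below the lowest control pool, and the knockout mean was 39.3% of the control mean (log2 fold change -1.30 with an SE of 0.153, adjusted p = 1.15e-04 by limma). Chaf1a and Chaf1b, subunits of the assembly factor CAF-1 that places histones behind the fork, were at 56.4% and 67.1% of controls, with log2 fold changes of -0.77 and -0.53. Chaf1a ranged over 14.6 to 16.7 in knockouts and 22.5 to 33.9 in controls, and Chaf1b over 12.3 to 14.1 in knockouts and 16.2 to 23.4 in controls. Fancd2, a repair protein that protects stalled forks, had 6.05, 7.30 and 7.88 in knockout libraries, against 9.86, 13.7 and 10.5 in Cre controls and 11.3, 14.6 and 15 in floxed controls (log2 fold change -0.73 with an SE of 0.132, adjusted p = 0.00161 by limma). Fancd2 lies 26942 bases from Vhl on chromosome 6, so it is closely linked to the floxed alleles. Its log2 fold change was -0.85 against the floxed controls, which carry the same floxed alleles as the knockout. Against the Cre controls, which carry none, it was -0.61. Any part of this linkage in its fall was not tested.

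Among the genes that control entry into S phase, the cyclins fell and E2f1 did not. Ccne1, cyclin E1 (ENSMUSG00000002068, chromosome 7, 38097984 to 38107534), had 4.20, 4.39 and 4.16 normalized reads in the 3 knockout libraries, 7.59, 9.84 and 8.08 in the Cre controls and 10.5, 11.1 and 11.2 in the floxed controls. Its groups were tight and well apart, and its adjusted p was the smallest of the set (log2 fold change -1.01 with an SE of 0.0928, adjusted p = 2.01e-05 by limma). Ccne2, cyclin E2, had 10.1, 11.5 and 10.3 in knockout libraries, against 11.9, 21.6 and 15.1 in Cre controls and 21.8, 19.2 and 21.2 in floxed controls, and the lowest control, Cre control 1, was just above the highest knockout pool. E2f1, an activating E2F (ENSMUSG00000027490, chromosome 2, 154559407 to 154569892), had 66.7, 64.9 and 67.8 normalized reads in the 3 knockout libraries, 60.1, 61.1 and 58.4 in the Cre controls and 52.5, 66.5 and 60.6 in the floxed controls. Its knockout values overlap the control range, and the difference did not pass the test (log2 fold change 0.15 with an SE of 0.0695, adjusted p = 0.112 by limma). Without floxed control 2 the E2f1 difference passed the test as a rise (0.19, limma adjusted p = 0.0334).

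**Figure D2:**
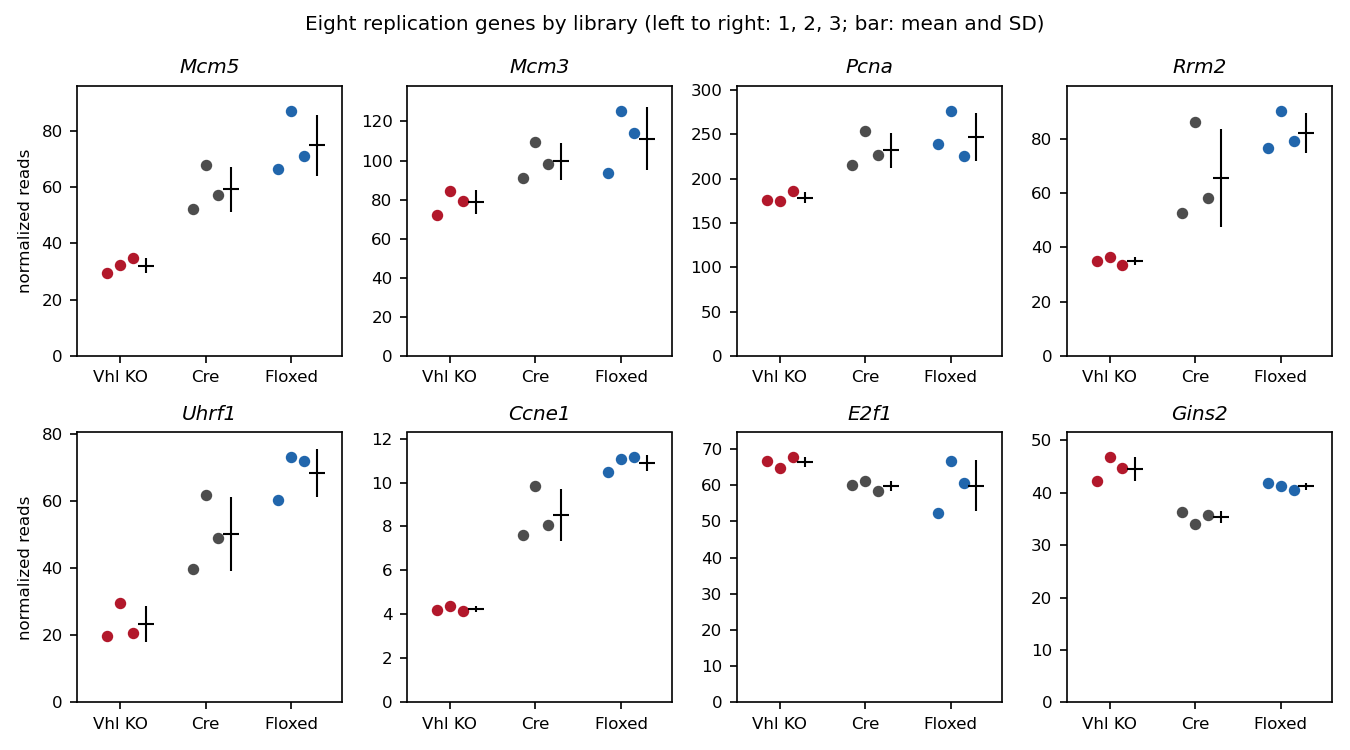
Normalized reads of 8 genes in each library (points, libraries 1 to 3 from left to right within a genotype), with the mean and SD of each genotype beside them. Ccne1 and Mcm5 show separate groups, Mcm3 and Pcna a smaller step, E2f1 overlapping groups, and Gins2 the 1 rise.

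Levels can be set between genes only per length, here as normalized reads per kilobase of the longest annotated transcript. On that scale Pcna was highest, at 118 in knockouts and 158 in controls, and Orc1 lowest, at 0.284 and 0.724. The Mcm ring genes lay in between, at 9.12 (Mcm2) to 25.9 (Mcm3) in knockouts and 18.7 (Mcm2) to 34.8 (Mcm3) in controls. E2f1 was level with them at 24.1 in knockouts and 21.7 in controls.

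The fall was present against each control genotype. Against floxed controls 35 members fell and 0 rose, with 16.8% of all genes called lower, and the median log2 fold change was -0.84. Against Cre controls 34 fell and 1 rose, with 17.7% of all genes called lower, and the median was -0.59. Members without a call were Gins2, Pold1, Rfc2 and E2f1 against floxed controls, and Pold1, Rfc2, Dut and E2f1 against Cre controls. Uhrf1 had -1.07 against Cre and -1.53 against floxed controls, Pole -0.76 and -1.23, and Rfc4 -0.47 and -0.47. These comparisons share the knockout libraries. With library totals in place of the deposited factors, the split of all genes against floxed controls was 1635 higher and 2540 lower, where it was 2099 higher and 2013 lower with those factors, and 36 members fell.

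**Figure D3:**
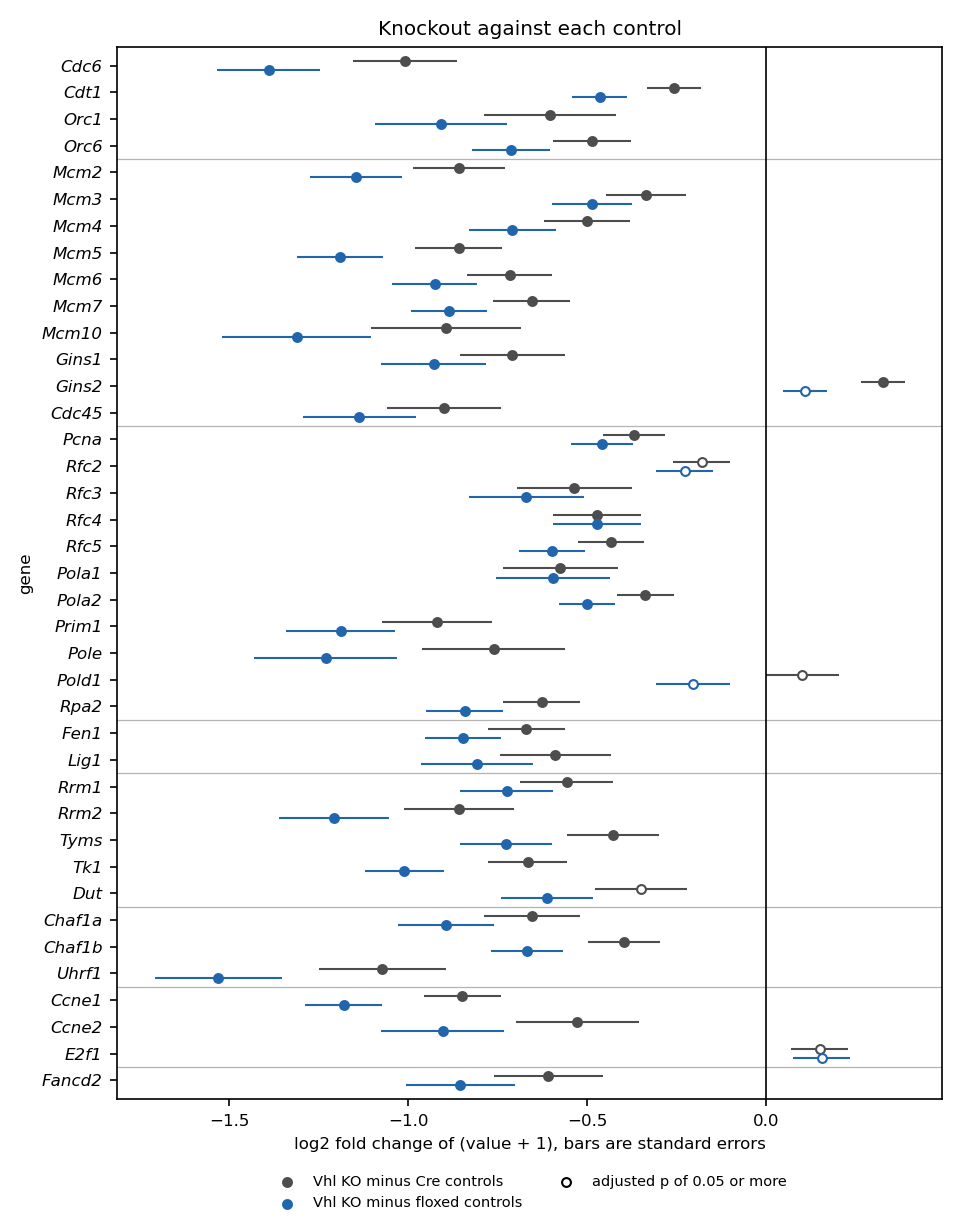
Log2 fold change of each gene in the knockout against Cre controls (grey) and floxed controls (blue), with standard errors as bars and open points where the adjusted p is 0.05 or more. Most blue points lie left of the grey ones, with medians of -0.84 for blue and -0.59 for grey.

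The control genotypes were also tested directly against each other. Their median difference was smaller than that of the knockout against Cre controls (-0.59) or floxed controls (-0.84). Cre controls were below floxed controls in 37 of 39 members (94.9%), against 46.9% of all genes, with a median log2 difference of -0.23. Limma and edgeR both called 0 members. Of all genes, limma called 0.1% lower in Cre controls, 0.0667% higher and 0.167% in either direction. At an unadjusted p under 0.05, limma had 961 and edgeR 966 of all 12003 genes, and 13 and 12 of the members. The lowest values were in Pole (-0.47), Uhrf1 (-0.46) and Mcm10 (-0.42), and the smallest adjusted p was 0.479, for Gins2 (-0.22). The shift was uneven among pools, with a median of -0.35 when Cre control 2 was left out.

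The median member, as a percentage of its mean over the 6 controls, was 56.8, 60.8 and 58.2 in knockout libraries 1 to 3, 80.7, 106 and 88.1 in Cre controls and 99.3, 118 and 108 in floxed controls. The knockout pools were close to each other and below every control, while the controls ranged widely and the 2 control genotypes overlapped. Library 2 was the highest of its genotype in 26 members among knockouts (30.5% of all genes), 37 among Cre controls (34.4% of all genes) and 34 among floxed controls (30.8% of all genes). Library 1 was the lowest of its genotype in 19 members among knockouts (34.9% of all genes), 32 among Cre controls (39% of all genes) and 30 among floxed controls (32.9% of all genes).

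**Figure D4:**
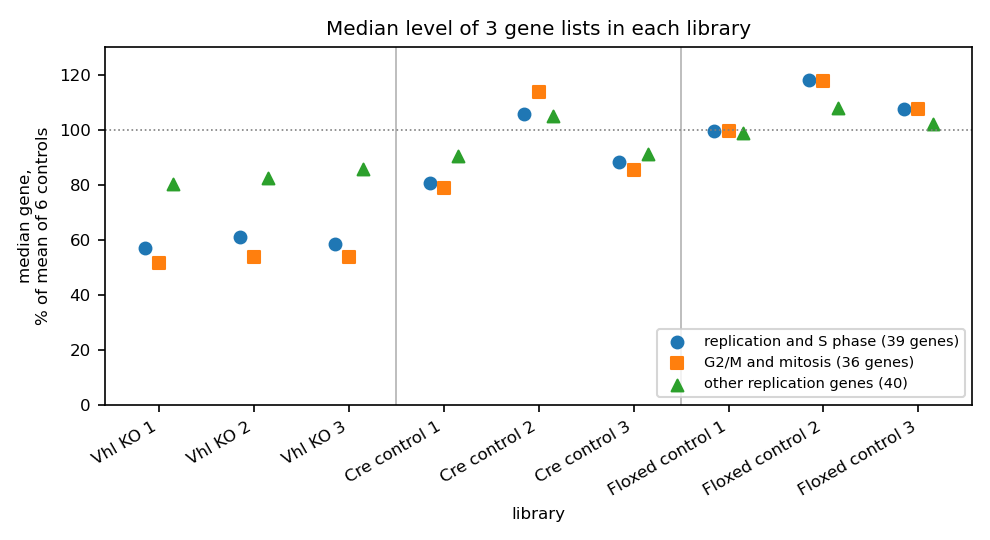
Median gene of 3 lists in each library, as a percentage of the mean of the 6 controls. The replication and S phase genes (circles) lie between 56.8% and 60.8% in knockout libraries and between 80.7% and 118.2% in control libraries.

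Library 1 was also the library with more neutrophil marker reads. Summed over 6 of 9 neutrophil markers measured, these were 404, 138 and 138 normalized reads in knockout libraries 1 to 3, 325, 94.3 and 103 in Cre controls and 666, 209.8 and 199.6 in floxed controls. With libraries 2 and 3 alone, 35 members fell and 1 rose against both controls, with a median of -0.74. The share of all genes called by this smaller fit is not given here. The shares of 20.2% lower and 19.7% higher belong to the fit of all 9 libraries. Leaving out the first libraries was chosen after the data were seen.

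Other genes of the replication machinery fell in part. Of 40 further replication genes, 18 fell and 1 rose against both controls, with a median of -0.23. Among all genes, 20.2% were called lower and 19.7% higher. Dna2, a nuclease for long flaps, fell, with no overlap between knockout and controls, at 29.7, 26.4 and 26.7 in knockout libraries, against 68.5, 61.4 and 59.7 in Cre controls and 69.2, 69.7 and 85 in floxed controls (log2 fold change -1.28 with an SE of 0.0808, adjusted p = 1.40e-06 by limma). Pclaf, a Pcna partner, Clspn, the checkpoint mediator claspin, and Dbf4, the activator of the Cdc7 kinase, had log2 fold changes of -1.41, -1.20 and -0.76. Top1, topoisomerase I, and Mcmbp, an Mcm-binding protein, did not pass the test, at -0.15 and -0.06. The 1 that rose was Mcm9 (0.27), a helicase used in repair, named after its value was seen.

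Of 23 genes of nucleotide supply, 16 fell and 3 rose (median -0.29), with 20.2% of all genes called lower and 19.7% higher. Mthfd2, the mitochondrial folate enzyme, fell, with 9.18, 10.7 and 8.68 in knockout libraries, against 25.5, 39 and 33.7 in Cre controls and 27.2, 36.1 and 31.5 in floxed controls (log2 fold change -1.65 with an SE of 0.134, adjusted p = 8.84e-06 by limma). Shmt2, its neighbour in the same folate pathway, rose, with 73.7, 72.7 and 74.4 in knockout libraries, against 36, 36.7 and 36.7 in Cre controls and 35.2, 39.9 and 37.3 in floxed controls (log2 fold change 0.98 with an SE of 0.0519, adjusted p = 4.26e-07 by limma). Exons of Shmt2 overlap those of Ndufa4l2, a mitochondrial protein gene and known HIF target, on the opposite strand. Ndufa4l2 had 222, 205 and 211 in knockout libraries, against 0.278, 0.209 and 0.452 in Cre controls and 0.0544, 0.102 and 0.0481 in floxed controls, and the part of its reads in the Shmt2 value was not tested. Umps, of pyrimidine synthesis, and Dck, deoxycytidine kinase, fell by 0.50 and 0.54 on the log2 scale. Mthfd1 and Ctps2 did not pass the test, at -0.20 and -0.02. The other genes that rose were Samhd1 (0.30), which degrades dNTPs, and Rrm2b (0.27), the reductase subunit used outside S phase, both named after their values were seen. Of 18 chromatin assembly genes, 14 fell and 1, H2afz (0.31, named after its value was seen), rose (median -0.38). Hells, a chromatin remodeller, Asf1b, a histone chaperone, Ezh2, the H3K27 methyltransferase, and Nasp, a carrier of free histones, had -1.40, -1.12, -0.80 and -0.63. Ssrp1 and Casp8ap2 did not pass, at 0.08 and -0.26.

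Of 28 regulators of the G1 to S step, 12 fell and 4 rose (median -0.23), with 20.2% of all genes called lower and 19.7% higher. The activating E2f2 and E2f3 fell, as did the repressor E2f8 and the E2F partner Tfdp1, with log2 fold changes of -0.88, -0.61, -1.37 and -0.40. E2f2 had 28.7, 28.8 and 27.8 in knockout libraries, against 50.9, 54 and 51.9 in Cre controls and 51.9, 58.7 and 51.4 in floxed controls, with no overlap of groups, where its relative E2f1 did overlap. Ccnd3 and Rb1 did not pass the test, at 0.12 and 0.09. The 4 that rose, named after their values were seen, were Myc (0.79), Tfdp2 (0.49), Cdk6 (0.45) and Ccnd2 (0.17). Of 21 CDK inhibitors and arrest genes, 6 rose and 9 fell (median -0.18). Cdkn1b, the p27 inhibitor of cyclin E kinase, rose, with 88.8, 103 and 107 in knockout libraries, against 65.4, 60.4 and 56.4 in Cre controls and 62.5, 56.4 and 63.1 in floxed controls (log2 fold change 0.71 with an SE of 0.0747, adjusted p = 5.60e-05 by limma). Mxi1, an antagonist of Myc, Ccng2, cyclin G2, and Tob1, an antiproliferative protein, rose by 1.27, 1.01 and 0.67 on the log2 scale. Among those that fell, named after their values were seen, Cdkn2b, the p15 inhibitor of the cyclin D kinases, had 0.558, 0.562 and 0.200 in knockout libraries, against 2.13, 4.13 and 3.45 in Cre controls and 3.53, 3.17 and 2.31 in floxed controls (log2 fold change -1.51 with an SE of 0.187, adjusted p = 1.62e-04 by limma), and Gadd45b, a stress-induced gene, had a log2 fold change of -1.31. Btg1 and Btg2 did not pass, at 0.02 and 0.34.

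Genes of the later cycle fell as well, where 20.2% of all genes were called lower and 19.7% higher. Of 36 G2 and mitosis genes, 33 fell and 1 rose (median -0.84), and the median gene was at 51.4, 53.5 and 53.7% of the control mean in knockout libraries 1 to 3, 78.9, 113 and 85.1% in Cre controls and 99.5, 118 and 107% in floxed controls. Kif20a, a kinesin of cytokinesis, had 12.3, 13.3 and 11.2 in knockout libraries, against 23.8, 35.8 and 28.3 in Cre controls and 33.4, 39.5 and 32.5 in floxed controls (log2 fold change -1.31 with an SE of 0.121, adjusted p = 2.14e-05 by limma). Ccnb1, cyclin B1, Nuf2, of the kinetochore, and Plk1, a mitotic kinase, had -1.17, -0.99 and -0.92, whereas Pttg1 and Espl1 did not pass the test, at 0.07 and 0.10. The 1 that rose was Anln (0.32), named after its value was seen. Of 34 genes of the replication checkpoint and repair, 19 fell and 0 rose (median -0.48). H2afx, Ung, Fanca and Rad51ap1 had -0.76, -0.98, -1.33 and -0.92, and the checkpoint kinases Atm and Atr did not pass, at -0.15 and 0.12.

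**Figure D5:**
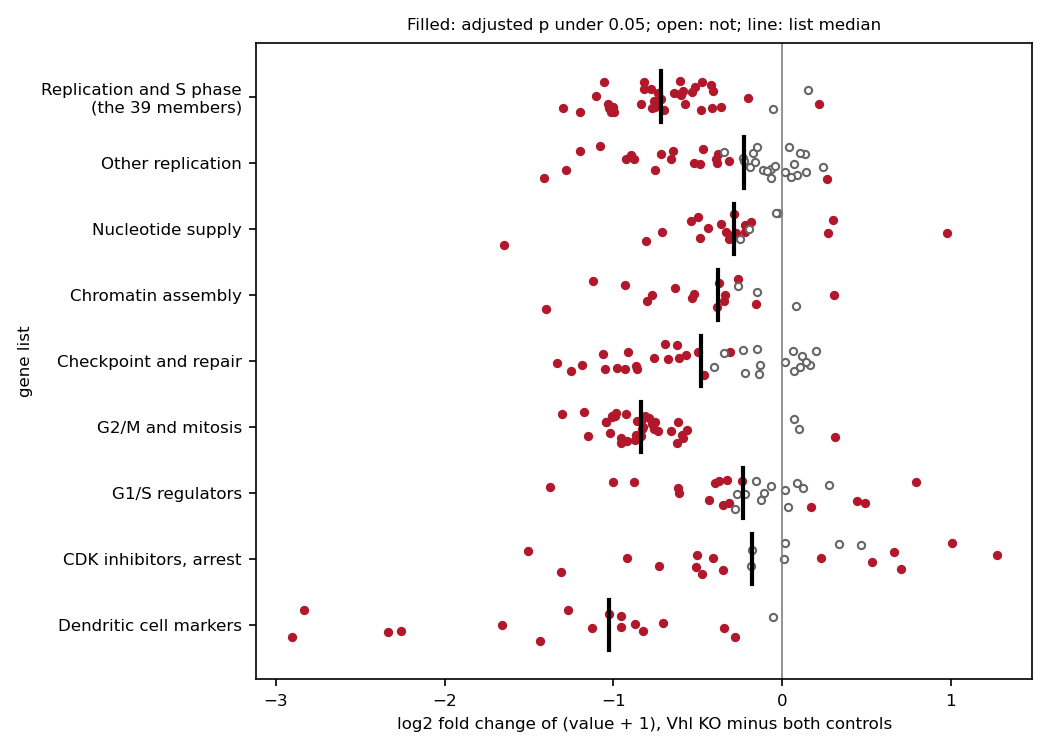
Log2 fold change of the knockout against both controls for each gene of 9 lists, filled where the adjusted p is under 0.05, with the list median as a line. The 39 members (median -0.72) and the G2 and mitosis genes (-0.84) lie almost wholly left of 0, and the other replication genes (-0.23) reach across it.

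Markers of dendritic cells, which also carry CD11c, moved in the same direction. Of 18 such markers 17 were measured, and 16 fell and 0 rose (median -1.02). Their summed level was 485, 501 and 489.9 normalized reads in knockout libraries 1 to 3, 685, 865 and 826 in Cre controls and 871, 641 and 645 in floxed controls. Fscn1, the bundling protein of mature dendritic cells, had 5.45, 3.37 and 4.48 in knockout libraries, against 28.2, 70.3 and 65.1 in Cre controls and 50.8, 21.7 and 25.3 in floxed controls. Ccr7, the receptor that guides them to lymph nodes, had 3.30, 4.90 and 4.72 in knockout libraries, against 26, 69.8 and 61.6 in Cre controls and 42.4, 19.1 and 25.4 in floxed controls. In both the knockout libraries lay below all controls, and no measured dendritic marker was at 0 in any library. Among knockouts and among Cre controls the library order of this sum (1, 3, 2, low to high) was also that of the median replication gene. Among floxed controls library 1 had the highest sum and the lowest median replication gene. The part of dendritic cells in the fall of the replication genes was not tested. Of 16 alveolar macrophage markers 5 rose and 7 fell (median -0.02), of 11 monocyte markers 4 rose and 2 fell, of 6 neutrophil markers 1 rose, and of 4 red cell markers 0 were called by limma or edgeR, with 0 at an unadjusted p under 0.05. Of 2 B cell markers measured 1 rose, of 5 T and NK cell markers 1 fell, and of 7 epithelial markers 2 rose and 2 fell. The background to all these marker counts, the dendritic ones included, is 19.7% of all genes called higher and 20.2% lower. Reads of mitochondrially encoded genes, a sign of cell state and RNA quality, made up 1.77% to 2.40% of reads in knockout libraries, against 3.29% to 3.82% in Cre controls and 2.67% to 5.59% in floxed controls, and 7 of 13 such genes fell. Their part in the result was not tested.

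Exons of 12 members overlap those of another measured gene on the opposite strand. Among the 27 members without such an overlap, 25 fell and 0 rose against both controls, with a median of -0.73. Of the genes named from outside the set, Mcm9, Ccnd3, Rb1, Mxi1, Kif20a and Fanca also have exons that overlap a measured gene on the opposite strand. The 8 members with E2F letters in their window all fell (median -0.80), as did 22 of the 24 with a window and no match (median -0.62), a description with no test.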

How the data were processed

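The submitters' processing notes name RSEM 1.2.3, CASAVA 1.8.2, cutadapt 1.3 and the build GRCm38. They leave the annotation, the strand setting and the later steps unstated. For the 9 libraries, the authors deposited 1 table with 12003 genes, whose signal is a whole number of reads times 1 factor per library (100% of values whole within 0.01 read). These factors equal library size with a TMM factor, so values are CPM-like and a change common to the whole transcriptome is scaled away. In every gene the third-highest value is 0.962 or more, and no column was left out (0 columns). GENCODE M21 named 11935 identifiers and left 68 without a symbol. No pair of libraries within a genotype (9 pairs) was a duplicate within counting noise.

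Limma 3.58.1 (R 4.3.3) was fitted to log2(value + 1) of all 9 libraries with 1 mean per genotype and an intensity trend, and two-sided p-values were adjusted over 12003 genes. Adding 1 understates changes of low genes. The fits were tested on simulated data. Alternatives were edgeR 4.0.16 and DESeq2 1.42.0 on recovered reads, other scalings, pseudocounts and filters, a replicate block, and each library left out. The members and lists were chosen with earlier results of these data known. Every member is named. From each other list of replication and cell cycle genes, the 4 genes with the smallest adjusted p and the 2 best expressed without a call are named. Further genes of those lists are marked as named after their values were seen. Of the cell type markers, only Fscn1 and Ccr7 are named. Promoter sequences are from RefSeq.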

Additional observations from a re-analysis of the deposited data

How the results depend on the processing

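Results were recomputed under 17 alternatives, of which the fit to libraries 2 and 3 alone was chosen after seeing the data. Against both controls 35 of 37 called members kept their call under all of them, against floxed controls 33 of 35 and against Cre controls 24 of 35, and no member changed direction where it was called. The exceptions against both controls were Rfc2 and Gins2, and those against floxed controls were Pola1 and Rfc4. Against Cre controls they were Ccne2, Cdt1, Chaf1b, Lig1, Mcm3, Orc1, Pola1, Pole, Rfc3, Rfc4 and Tyms. The call of Ccne2 was lost most often, in 6 of 17 alternatives. Leaving out 1 library gave 35 to 36 members lower and 0 to 2 higher against both controls (median -0.77 to -0.62), 33 to 36 lower and 0 to 1 higher against floxed controls (median -0.88 to -0.77), and 23 to 35 lower and 1 higher against Cre controls (median -0.72 to -0.44). The 23 came without Cre control 2, where the median was -0.44, and the highest number of rises against both controls came without floxed control 2. With libraries 2 and 3 alone the median against Cre controls was -0.68. The share of all genes called by each smaller fit against the controls is not set beside these counts. Between the control genotypes, over all genes, limma called 12 lower and 8 higher in Cre controls, and leaving out 1 library gave 7 to 17 lower and 6 to 16 higher, with a median of the members of -0.35 to -0.16. DESeq2 gave 49 lower and 25 higher, the replicate block 59 lower, and libraries 2 and 3 alone 75 lower and 72 higher. The cause was not tested. None of these alternatives called a member between the controls.

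Library numbers are shared by the genotypes in the labels. The deviations of same-numbered libraries from their group means correlated at 0.323, 0.223 and 0.0462 between knockout and Cre controls, at 0.524, 0.0141 and 0.159 between knockout and floxed controls, and at 0.202, 0.119 and -0.0934 between the controls. Library 1 correlated best with its own number in each comparison. Vhl knockout 2, by contrast, correlated at 0.382 with floxed control 3 and at 0.0141 with floxed control 2. Not every library correlated best with its own number, so the numbers are not taken as pairs. These correlations are over all genes. In the replication set, the median member was lowest in library 1 and highest in library 2 of each genotype. Whether a number marks a shared batch is not stated in the labels. With the replicate block, 35 members were lower and 1 higher against both controls, 35 lower and 0 higher against floxed controls, and 35 lower and 1 higher against Cre controls. The share of all genes called by that fit is not set beside these counts either. Depth did not limit detection of any member, the lowest being Orc1 at 17 reads in 1 library.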
